A study of Mus musculus with 8 samples.

Results

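Layer 5 pyramidal tract neurons were taken from single-cell RNA sequencing of mouse frontal isocortex at postnatal day 7, in cells sorted for a D1 receptor reporter. A cell was counted as a member when it had counts for Bcl11b and Fezf2 and for at least 1 of Pou3f1, Tcerg1l, Fam84b and Crym, and no count for Gad1, Gad2, Syt6, Hs3st4 or Cux2. By this rule 260 of the 11494 cells of the sort were members, of 22876 cells in the whole series. The members therefore carry or lack these 11 genes by choice, and values of those genes are given below as a description only.

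All cells came from mice with the Drd1a-tdTomato line 6 transgene, an artificial chromosome in which Drd1 regulatory sequence drives the red protein tdTomato. Control mice were Foxp2 flox/flox and carried no Cre. Conditional knockout mice (cKO) were Foxp2 flox/flox with Emx1-Cre, a recombinase expressed in the precursors of cortical excitatory neurons and astrocytes. The floxed alleles and the reporter were thus shared by both groups, and the mice were littermates on a C57BL/6J background. Cortex was dissociated with pronase, live tdTomato-positive cells were sorted by flow cytometry, and each genotype had 2 libraries. Control 1 and cKO 1, both female, were prepared on 1 day, and control 2, female, and cKO 2, male, on another. Whether a library pooled several animals is not stated in the sources used here, so the tests below measure the spread between libraries. Values of the 4 libraries are given in the order control 1, control 2, cKO 1, cKO 2.

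Pyramidal tract neurons of layer 5 are the excitatory cells whose axons leave the cortex for the brainstem and spinal cord, including the corticospinal tract. Fezf2 and Bcl11b (CTIP2) are transcription factors needed for their identity and for the growth of their axons. In the first postnatal week these axons are still extending and branching. Layer 6 corticothalamic neurons, which also carry Bcl11b and Fezf2 and project to the thalamus, and upper layer neurons, which mostly project within the cortex, are the neighbouring excitatory classes. They were used here for comparison, as 359 corticothalamic cells (counts for Syt6 and Hs3st4, none for Gad1, Gad2 or Cux2) and 638 upper layer cells (among other conditions, counts for Cux2 and none for Gad1, Gad2, Syt6 or Hs3st4).

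The members numbered 46, 83, 60 and 71 in the 4 libraries. Their summed counts were 1388025, 1562492, 1373880 and 824418, and the median count per cell was 32034, 17202, 19243 and 9427. The cKO 2 members were thus the shallowest, and they also had the highest median share of mitochondrial counts, at 5.94% against 2.91%, 3.45% and 3.80% in the others. Over the 4 libraries, the median count per cell was 15898 in members, 14939 in corticothalamic cells, 15458 in upper layer cells and 7861 in 1743 astrocytes, cells with counts for Aqp4, Gja1 and Slc1a3 and none for Gad1, Gad2 or Neurod6. In the D1Tom libraries 97 barcodes occurred in more than 1 library. Of the members 5 had such a barcode, and no barcode was shared by members of 2 libraries. The counts are not plain numbers of molecules: values of 2 were 1.69, 0.723, 1.54 and 0.307 times as frequent as values of 1 in the 4 libraries.

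The rule narrowed the cells stepwise. Bcl11b was counted in 4270 cells, Fezf2 in 1167 of those, and 1 of the other 4 genes in 905 of those. The lack of Gad1 and Gad2 left 657 cells, that of Syt6 left 467, that of Hs3st4 left 307, and that of Cux2 left the 260. Many members lay near the edge: 72 had exactly 1 Bcl11b count and 108 had 1 or 2, around a median of 4. For Fezf2 these were 92 and 152 members, around a median of 2. Just outside, 132 cells failed by exactly 1 count of 1 excluded gene and 236 by 1 or 2 counts over the excluded genes, and 134 failed by Hs3st4 alone. Among the either-or genes, Pou3f1, a POU-domain transcription factor, was counted in 158 members. Tcerg1l was counted in 143, Crym, which encodes a thyroid hormone binding protein, in 109, and Fam84b in 94. Exactly 1 of the 4 was counted in 116 members, 2 in 70, 3 in 48 and all 4 in 26. Their median counts per cell were 10458, 15898, 25883.5 and 30384, so that members with more of these genes were also deeper.

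In CPM, counts scaled to a class sum of 1000000 in each library, Bcl11b stood at 571, 449, 635 and 518 in members, at 509.5, 370.3, 454 and 289.9 in corticothalamic cells and at 33.4, 90.4, 104 and 85.2 in upper layer cells. Fezf2 stood at 213, 230.4, 269 and 176 CPM in members, at 195, 118, 226 and 60.8 in corticothalamic cells and at 17.6, 35.6, 33.4 and 25.3 in upper layer cells. These levels describe the choice of cells. Tcerg1l was the either-or gene that stood apart from both classes, at 295, 152, 317 and 171 CPM in members, 25.4, 33.6, 5.40 and 19.0 in corticothalamic cells and 39.4, 52.1, 91.9 and 34.6 in upper layer cells. Pou3f1 did not separate members from upper layer cells, at 220.5, 252, 172 and 165 CPM against 216, 232, 271 and 135. Crym was higher in corticothalamic cells than in members in each library, at 115, 72.6, 143 and 64.6 CPM against 67.7, 39.7, 88.1 and 58.2.

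The label was checked against genes that the rule did not use. Slc17a7, the vesicular glutamate transporter of cortical excitatory neurons, was counted in 74.2% of members and 16.9% of astrocytes, or 52.3% and 11.3% when every cell was thinned to 5000 counts. Neurod6, a transcription factor of excitatory neurons, was counted in 84.2% of members. Both are genes of excitatory neurons at large, so they do not check the pyramidal tract label itself. Only 55 of the 260 members had 0 counts of both Rprm and Sulf1, genes of the corticothalamic list outside the rule. Most members thus carried Rprm, Sulf1 or both, though each was called lower in members than in corticothalamic cells. Nefl, the light neurofilament chain, was counted in 73.8% of members, 47.4% of corticothalamic cells, 38.6% of upper layer cells and 22.3% of astrocytes. Thinned, these shares were 56.0%, 31.6%, 24.05% and 16.5%. Thinning left out the 2282 cells of the sort with fewer counts and kept 243 of the members, which for these shares were chosen at full counts. Counts of glial genes were also present in members. The 9 astrocyte genes together reached 537, 2074, 1170 and 2903 CPM in members, within the range of the other neuron classes (732 to 3590) except in control 1, and 7662 to 10353 in astrocytes. At least 2 of the defining genes of 1 other cell type were counted in 162 members, mostly those of astrocytes (146) or oligodendrocyte precursors (76), and 19 members met the astrocyte rule in full. The same held for 209 of the 359 corticothalamic cells and 302 of the 638 upper layer cells. The microglial genes summed to at most 12.1 CPM and the oligodendrocyte gene Mog was at 0. No doublet caller was run, and these cells were handled through alternatives that left them out.

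Members made up 1.43% of the cells in control 1 (exact 95% interval 1.05 to 1.91), 3.47% in control 2 (2.77 to 4.28), 2.13% in cKO 1 (1.63 to 2.74) and 2.30% in cKO 2 (1.80 to 2.90). The controls held the lowest and the highest share, with both cKO libraries between them. The mean was 2.45% ± 1.44 (SD, n = 2) in controls and 2.22% ± 0.121 (SD, n = 2) in cKO, a difference of -0.231 percentage points (two-sided exact permutation test, p = 1, where 2 libraries against 2 allow nothing below 0.333). The intervals cover counting error only. Depth enters these shares, since members were deep cells. Among cells thinned to 5000 counts, with the rule applied anew to the thinned counts, they were 1.45%, 2.73%, 2.20% and 1.91%. Without control 2 the difference turned to 0.784 points, and without control 1 it was -1.25.

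**Figure D1:**
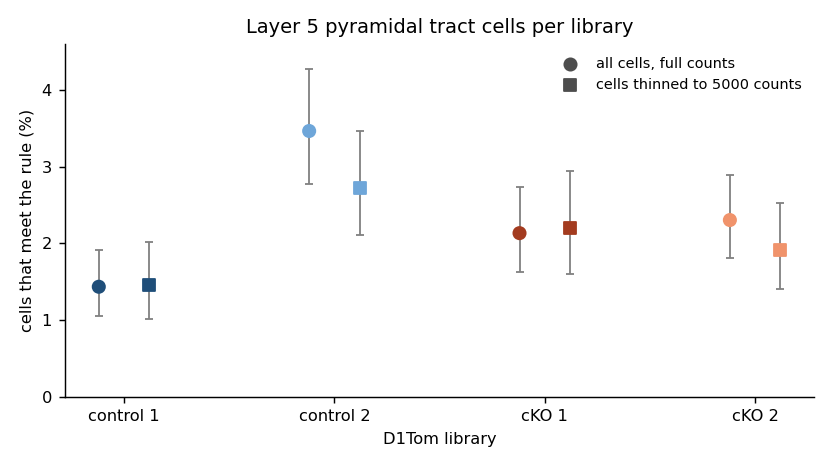
Share of sorted cells that met the layer 5 pyramidal tract rule in each library, in percent of all D1Tom cells. Points are libraries, error bars are exact 95% binomial intervals, and the 2 cKO libraries (2.13% and 2.30%) lie between the 2 controls (1.43% and 3.47%).

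Against layer 6 corticothalamic cells, the summed members had more neurofilament, more of the transcriptional cofactor Ldb2 and less of the corticothalamic genes Tle4 and Ppp1r1b. They also had more of many genes listed for callosal and other intracortical neurons. Counts were summed per library and class, and the test was edgeR's quasi-likelihood test, with the library as a block, leaving out the genes of both rules. An adjusted p (Benjamini-Hochberg over all genes tested) under 0.05 was called. Of 9993 genes 900 were called (9.01%), 499 higher in members (4.99%) and 401 lower (4.01%), and the median log2 difference over all genes was -0.010. These shares of all genes stand beside each list count of this comparison below. The cells were chosen by counts in the same cells, so these differences describe the chosen cells. Without the library block 277 were called, and without control 1 there were 487.

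The neurofilament chains, the intermediate filaments that fill large axons, were higher in members in each library. Nefl stood at 440.2, 374, 458 and 418 CPM in members and at 92.8, 146, 82.4 and 130.4 in corticothalamic cells. The 2 classes did not overlap, and the log2 difference was 1.88 (SE 0.13, edgeR adjusted p = 3.54e-13). Nefm, the medium chain, stood at 62.7, 61.4, 64.1 and 80.1 CPM against 6.34, 25.9, 5.40 and 22.8 (log2 difference 2.17, SE 0.25). Nefh, the heavy chain, was low at this age, at 12.2, 18.6, 14.6 and 27.9 CPM against 4.98, 2.20, 0 and 2.53 (log2 difference 2.54, SE 0.46). In the mouse genome (GRCm38.p6) Nefl, on chromosome 14 at 68083863 to 68089095, and Nefm, at 68119545 to 68125004, are adjacent coding genes, while Nefh is on chromosome 11 at 4938754 to 4948064. Of 26 axon cytoskeleton genes tested 6 were higher in members (Crmp1, Map1b, Nefh, Nefl, Nefm, Tubb3) and 2 lower (Map2, Marcks), with a median log2 difference of 0.09.

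Of the 23 further genes listed for pyramidal tract or other layer 5 neurons, 18 were tested, 8 were higher in members and 4 lower, with a median log2 difference of 0.41. Ldb2, a LIM domain binding protein, stood at 326, 240.0, 362 and 291 CPM in members and 156, 107, 82.4 and 101 in corticothalamic cells. Every member value exceeded every corticothalamic value, with a log2 difference of 1.39 (SE 0.13, edgeR adjusted p = 5.27e-10). Crim1, a transmembrane protein of corticospinal neurons, stood at 119, 70.4, 87.3 and 75.2 CPM against 28.5, 30.3, 23.0 and 41.8 (log2 difference 1.52, SE 0.19). Ldb2 and Crim1 were picked from the list after their values were seen. Bhlhe22, a transcription factor of cortical projection neurons, stood at 189, 223, 189 and 106 CPM against 51.2, 90.8, 18.9 and 39.2 (log2 difference 1.79, SE 0.17). Chst8, a sulfotransferase, was low, at 9.37, 10.9, 10.9 and 9.70 CPM against 0, 3.85, 0 and 1.27 (log2 difference 2.81, SE 0.62).

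The 4 genes of that list that were lower in members were Pcp4, Nfib, Etv1 and Hpca. Pcp4, a calmodulin-binding protein, stood at 575, 287, 500.0 and 275 CPM in members and 1481, 683, 999 and 479.8 in corticothalamic cells (log2 difference -1.14, SE 0.09). With cells thinned to 5000 counts this was -0.33 and no longer called (edgeR adjusted p = 0.121, the highest of a range that starts at 7.10e-38 over the alternatives), nor was it called without the library block. Nfib, a transcription factor also active in corticothalamic cells, was at 342, 471, 469 and 497 CPM against 917, 709, 987 and 703 (log2 difference -0.92, SE 0.10). Etv1, a layer 5 transcription factor, had a log2 difference of -0.59 (SE 0.13), which turned to 0.38 with thinned cells. The thinned fits applied the class rules anew to the thinned counts, which gave 190 members. They therefore differ from the main fit in the choice of cells as well as in depth.

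Genes of corticothalamic neurons outside the rules were mostly lower in members. Of 14 tested 10 were lower, 1 was higher and the median log2 difference was -0.90. Tle4, a corepressor of deep layer neurons, stood at 30.3, 44.2, 40.0 and 75.2 CPM in members and 384, 286, 284 and 291 in corticothalamic cells, a log2 difference of -2.80 (SE 0.16, edgeR adjusted p = 4.24e-15). Ppp1r1b (DARPP-32), an inhibitor of protein phosphatase activated through D1 receptors, was lower still, at 15.1, 10.2, 12.4 and 7.28 CPM against 337, 116, 171 and 62.0 (log2 difference -3.91, SE 0.19). The exception was Foxp1, a forkhead factor related to Foxp2, which was higher in members, at 624, 484, 529.9 and 403 CPM against 287, 343, 267 and 216 (log2 difference 0.85, SE 0.10). Nxph3, a neurexophilin, and Nptx1, a neuronal pentraxin, were among the genes of largest difference, with log2 differences of -3.73 (SE 0.26) and -3.27 (SE 0.20).

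Genes listed for callosal and other intracortical neurons were also often higher in members than in corticothalamic cells. Of 19 tested 10 were higher and 2 lower, with a median log2 difference of 0.59. The pyramidal tract list had 8 of 18 higher and 4 lower, with a median of 0.41. Against corticothalamic cells, these lists thus did not favour the pyramidal tract label over an intracortical one. Mef2c, an activity-dependent transcription factor, stood at 2114, 2155, 2063 and 1654 CPM in members and 1229, 1413, 829 and 1039 in corticothalamic cells (log2 difference 0.82, SE 0.08). Kitl, a ligand of the Kit receptor, went the other way, at 8.65, 24.96, 21.1 and 20.6 CPM against 146, 123, 112 and 127 (log2 difference -2.78, SE 0.20). Slc30a3, the synaptic zinc transporter, which was on no list, was higher in members, at 81.4, 57.6, 61.9 and 23.0 CPM against 6.79, 23.1, 4.05 and 8.86 (log2 difference 2.36, SE 0.29). Fam19a1, a secreted protein, had the largest rise among the genes named by the rule, at 319.9, 231, 292 and 108 CPM against 18.1, 42.4, 8.10 and 19.0 (log2 difference 3.35, SE 0.22). It did not differ beyond the threshold from upper layer cells, at 263, 175, 289 and 85.2 CPM (log2 difference 0.20, SE 0.09, edgeR adjusted p = 0.131).

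Against upper layer cells, the summed members had more neurofilament, more of the presynaptic genes, and less of the upper layer genes Cux1, Ntf3 and Lpl. Of 10054 genes 1539 were called (15.3%), 778 higher in members (7.74%) and 761 lower (7.57%), with a median log2 difference over all genes of -0.014. Each list count of this comparison below stands beside these shares of all genes. Without the library block 337 were called, and without control 1 there were 884. Both class comparisons use the same member sums, so they are not independent of each other. Deep layer lists went both ways against upper layer cells. Of 13 corticothalamic genes tested 5 were higher in members and 3 lower (Ntsr1, Ppp1r1b and Vwc2l), with a median log2 difference of 0.20. Of 5 layer 6b and subplate genes tested Tmem163 was higher and 3 were lower (Lpl, Moxd1 and Nr4a2), with a median of -2.21. Lpl is on the callosal list as well, so its difference counts in both lists.

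Nefl stood at 66.6, 116, 151 and 107 CPM in upper layer cells, below every member value (log2 difference 1.95, SE 0.13, edgeR adjusted p = 4.46e-09). Nefm had a log2 difference of 1.76 (SE 0.21). Of 26 axon cytoskeleton genes 7 were higher in members (Dclk1, Ina, Kif1a, Map1b, Nefh, Nefl, Nefm) and 8 lower (Dcx, Marcks, Marcksl1, Stmn1, Stmn2, Stmn4, Tuba1a, Tubb2b), so the list as a whole had a median log2 difference of -0.03. Dcx, Stmn1 and Stmn2 are proteins of growing processes that bind microtubules or tubulin.

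Of the pyramidal tract and layer 5 list 11 of 18 genes tested were higher in members and 4 lower, with a median log2 difference of 0.61. Pcp4 stood at 114, 77.2, 183 and 119 CPM in upper layer cells (log2 difference 1.73, SE 0.13) and Etv1 at 15.1, 59.5, 15.04 and 99.2, against 137, 168, 138 and 167 in members (log2 difference 1.95, SE 0.25). Pcp4 and Etv1 thus lay between the levels of upper layer and corticothalamic cells in the unthinned sums of all libraries but cKO 2, where Etv1 was above both. Ldb2 stood at 213, 178, 168 and 112 CPM in upper layer cells (log2 difference 0.78, SE 0.11) and Crim1 at 37.4, 41.2, 28.4 and 31.8 (log2 difference 1.28, SE 0.16, not called with thinned cells). Bhlhe22 was lower in members (log2 difference -0.53, SE 0.09). Of the callosal list 14 of 18 were lower and 1 higher, with a median log2 difference of -0.86.

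Cux1, a homeobox factor of the upper layers, stood at 25.2, 49.9, 33.5 and 46.1 CPM in members and 207, 178, 231 and 114 in upper layer cells (log2 difference -2.32, SE 0.18, edgeR adjusted p = 1.29e-08). Ntf3, a neurotrophin, was nearly absent from members, at 5.04, 1.28, 2.91 and 6.06 CPM against 88.2, 57.7, 40.7 and 22.5 (log2 difference -3.98, SE 0.30). Lpl, lipoprotein lipase, had a log2 difference of -2.21 and Inhba, an activin subunit, of -2.44. In the other direction Rasgrp1, an activator of Ras, stood at 197, 133, 185 and 108 CPM in members and 15.1, 38.9, 26.7 and 35.6 in upper layer cells (log2 difference 2.48). The secreted protein Nov stood at 82.1, 59.5, 118 and 63.1 CPM against 21.8, 19.1, 14.5 and 15.9 (log2 difference 2.05). Oma1, a mitochondrial protease, was higher in the summed members than in either class, though the members without Tcerg1l, described below, lay under the upper layer level. It stood at 82.9, 71.7, 87.3 and 40.0 CPM in members, 12.7, 11.003, 1.35 and 10.1 in corticothalamic cells (log2 difference 2.86, SE 0.26) and 16.9, 17.7, 20.6 and 6.55 in upper layer cells (log2 difference 2.13, SE 0.16).

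**Figure D2:**
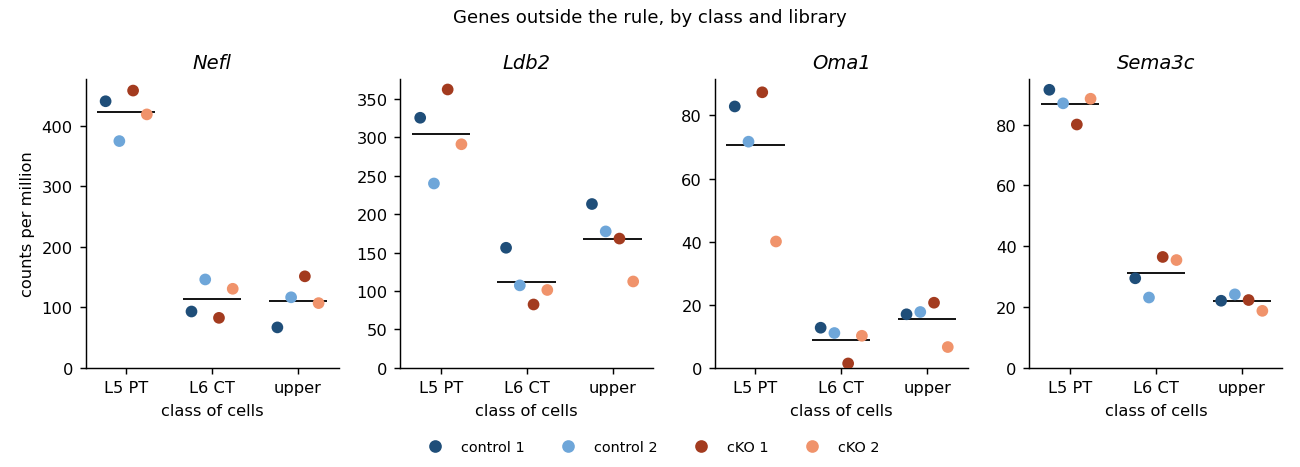
Nefl, Ldb2, Oma1 and Sema3c in CPM (vertical axes) in layer 5 pyramidal tract (L5 PT), layer 6 corticothalamic (L6 CT) and upper layer cells (upper). Each point is a library and the black bar is the mean over the 4 libraries. The lowest member value lies above the highest value of both other classes for all 4 genes.

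Axon guidance genes moved in both directions. Of 44 tested against corticothalamic cells 14 were higher in members and 4 lower (median log2 difference 0.20), and of 45 tested against upper layer cells 14 were higher and 6 lower (median 0.24). These shares stand beside 4.99% and 4.01% of all genes in the first comparison, and 7.74% and 7.57% in the second. Sema3c, a secreted semaphorin, was even across the member libraries, at 91.5, 87.0, 80.1 and 88.5 CPM. It stood at 29.4, 23.1, 36.5 and 35.4 CPM in corticothalamic cells (log2 difference 1.52, SE 0.18, edgeR adjusted p = 7.72e-08) and 22.0, 24.1, 22.3 and 18.7 in upper layer cells (log2 difference 1.93, SE 0.15, edgeR adjusted p = 1.29e-08). Chl1, an adhesion protein of the L1 family, stood at 625, 639, 700.2 and 587 CPM in members, 430.3, 529.8, 585 and 444 in corticothalamic cells and 432, 444, 437 and 344 in upper layer cells (log2 differences 0.35, SE 0.08, and 0.57). Its difference from corticothalamic cells was not called without control 1 or without the library block.

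Genes of synaptic vesicle release differed most from upper layer cells, where 16 of 23 tested were higher in members and 2 lower (median log2 difference 0.41). Against corticothalamic cells 8 of 23 were higher and 1 lower (median 0.15). Among all genes, 7.74% were higher and 7.57% lower against upper layer cells, and 4.99% and 4.01% against corticothalamic cells. Snap25, a membrane protein of vesicle fusion, stood at 882, 825, 719 and 719 CPM in members and 216, 309, 259.6 and 294 in upper layer cells (log2 difference 1.52, SE 0.09, edgeR adjusted p = 1.75e-09). It stood at 941, 896, 1156 and 722 CPM in corticothalamic cells. Syt4, a synaptotagmin, stood at 726, 584, 856 and 474 CPM in members, 239, 314, 223 and 176 in corticothalamic cells and 469, 525, 506 and 319 in upper layer cells. Its log2 differences were 1.43 (SE 0.11) and 0.48 (SE 0.08, not called without the library block). The vesicular glutamate transporters split. Slc17a7 was higher in members than in upper layer cells, at 250.7, 216, 265 and 176 CPM against 87.7, 130.2, 121 and 118 (log2 difference 0.98, SE 0.12). Slc17a6, the transporter more typical of young and subcortical neurons, was lower, at 7.20, 18.6, 9.46 and 6.06 CPM against 43.6, 41.2, 50.7 and 30.9 (log2 difference -2.02, SE 0.24).

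Of the glutamate and GABA receptor genes 11 of 32 were higher in members than in corticothalamic cells and 3 lower (median log2 difference 0.24), and 15 of 31 were higher than in upper layer cells and 1 lower (median 0.33). Grik2, a kainate receptor subunit, stood at 80.0, 44.8, 68.4 and 50.9 CPM in members and 23.1, 22.6, 28.4 and 17.7 in corticothalamic cells (log2 difference 1.38, SE 0.20). Grik3, another kainate subunit, lay between the classes, at 59.1, 45.4, 85.2 and 40.0 CPM in members, 96.0, 101, 151 and 94.9 in corticothalamic cells and 9.28, 10.0, 12.3 and 20.6 in upper layer cells. Of the ion channel genes 9 of 42 were higher than in corticothalamic cells and 1 lower (median 0.23), and 11 of 41 were higher than in upper layer cells and 1 lower (median 0.24). For both lists, the shares of all genes were 4.99% higher and 4.01% lower against corticothalamic cells. Against upper layer cells they were 7.74% and 7.57%. Cacna2d3, an auxiliary calcium channel subunit, was above both classes in each library, at 41.1, 30.7, 56.0 and 33.96 CPM against 6.34, 17.6, 5.40 and 2.53 in corticothalamic cells (log2 difference 2.14, SE 0.31) and 20.2, 7.66, 17.3 and 12.2 in upper layer cells (log2 difference 1.46, SE 0.21). Kcnq5, a potassium channel subunit, exceeded its corticothalamic level, at 69.9, 49.9, 67.7 and 44.9 CPM against 16.8, 24.2, 8.10 and 25.3 (log2 difference 1.61, SE 0.24).

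**Figure D3:**
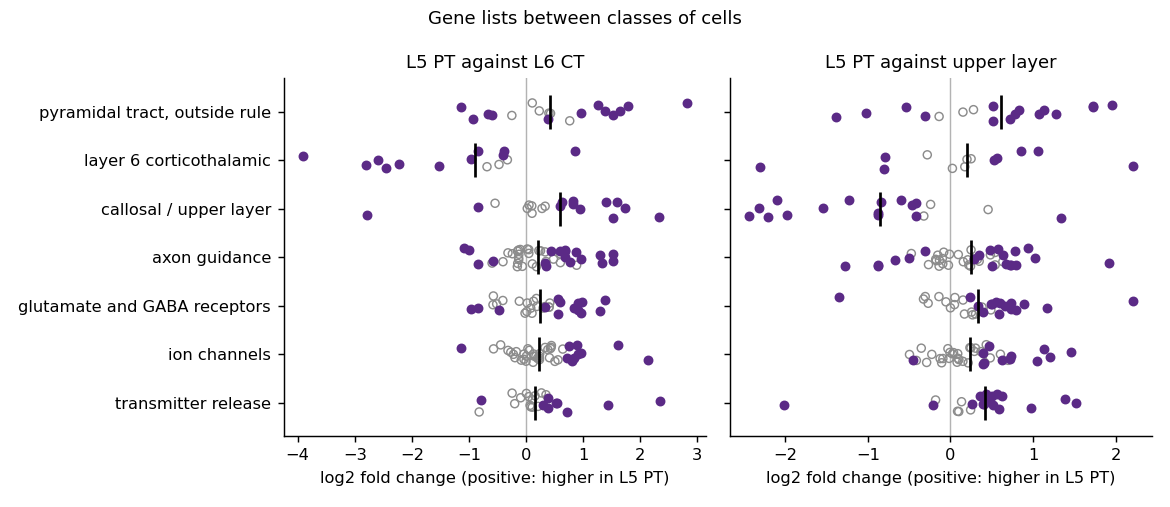
Log2 differences of the genes of each list between members and corticothalamic cells, and between members and upper layer cells (horizontal axes; above 0 is higher in members). Each point is a gene, filled where the edgeR adjusted p was under 0.05 and open where not, and the vertical bar is the list median, for example 0.41 and 0.61 for the pyramidal tract list and -0.90 and 0.20 for the corticothalamic list.

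The members were not uniform. They were divided by Tcerg1l after the data were seen, into 143 cells with a count and 117 at 0, and the values that follow describe this division without a test. Cells with Tcerg1l were deeper, with a median count of 19695 against 12408. Nefl stood at 572, 496, 623 and 628 CPM in cells with Tcerg1l and at 237, 170.2, 130.4 and 118 in cells without. Pex5l, a regulator of HCN channels, stood at 320.1, 193, 398 and 198 CPM against 73.0, 107, 111 and 53.2. Both genes, and Bcl11b at 846, 615, 832 and 699.7 CPM against 148, 170.2, 245 and 257, were higher with Tcerg1l in all 4 libraries.

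Oma1 and Sema3c were concentrated in the same cells. Oma1 stood at 132, 105, 131 and 63.8 CPM in cells with Tcerg1l and at 7.30, 15.5, 0 and 5.91 in cells without. Sema3c stood at 146, 114, 101 and 136 CPM against 7.30, 41.3, 39.1 and 20.7. Slc30a3 showed the reverse order in each library, at 16.7, 40.8, 25.2 and 16.5 CPM with Tcerg1l and 181, 85.9, 135 and 32.5 without, and was counted in 17.5% of the first cells and 37.6% of the second although these were shallower. Rax, a homeobox gene, had the same order, at 14.3, 42.8, 4.38 and 6.17 CPM with Tcerg1l and 148, 85.9, 23.9 and 29.5 without. Cells with Tcerg1l were 26 of 46, 49 of 83, 36 of 60 and 32 of 71 members in the 4 libraries. In members without it, Oma1 lay below its upper layer level in each library. Sema3c in those members exceeded both other classes only in control 2 and cKO 1. The higher class sums of Oma1 and Sema3c thus rested mainly on the cells with Tcerg1l. Nefl in members without Tcerg1l exceeded both other classes only in control 1 and control 2. Ldb2 stood at 333, 290, 428 and 426 CPM with Tcerg1l and 314, 156, 232 and 97.5 without. In members without Tcerg1l, Ldb2 lay below its upper layer level in control 2, and below both other classes in cKO 2.

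**Figure D4:**
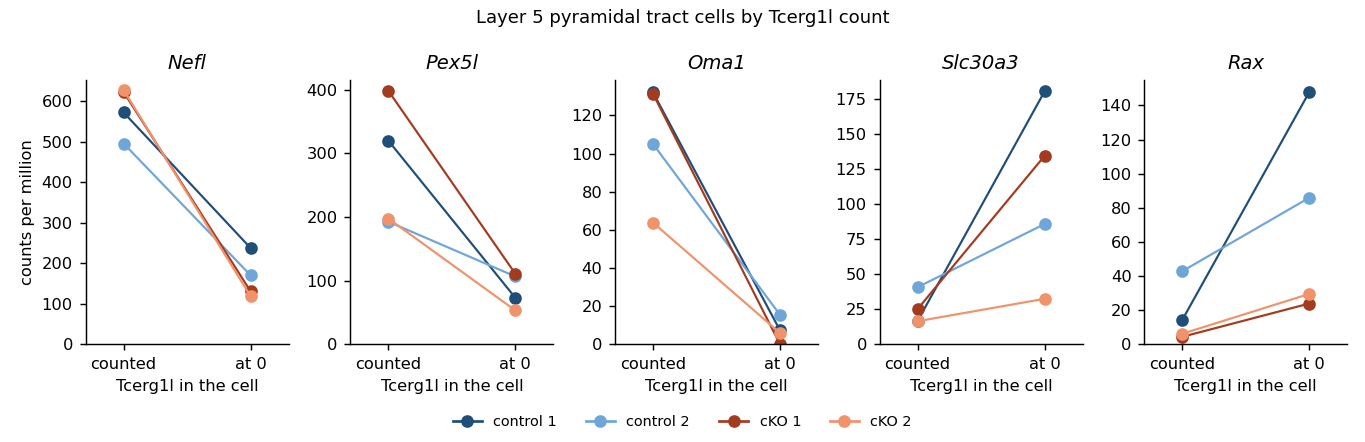
Nefl, Pex5l, Oma1, Slc30a3 and Rax in CPM (vertical axes) in members with a Tcerg1l count and members at 0, by library. Nefl, Pex5l and Oma1 are higher with Tcerg1l in all 4 libraries, Slc30a3 and Rax are higher without it in all 4, and the division was chosen after the data were seen.

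Foxp2, the targeted gene and a forkhead transcription factor of corticothalamic neurons, was low in members and lower in both cKO libraries. It stood at 22.3 and 62.7 CPM in controls and 2.91 and 13.3 in cKO, and was counted in 15, 35, 2 and 10 cells. The groups did not overlap, and 75% of the counts of cKO 1 came from 1 cell. The log2 change was -2.53 (SE 0.76, edgeR adjusted p = 0.998), and over the alternatives the adjusted p lay between 5.71e-06 and 1.00. Without control 1 the value was -3.09 (edgeR adjusted p = 0.00218), in a fit where control 2 alone stood for the controls. In each fit without 1 library, the lone library of a genotype is assumed to vary like the pair of the other genotype, so that its calls rest on the spread of that pair. Corticothalamic cells held more Foxp2, at 279, 177, 59.4 and 40.5 CPM, and upper layer cells less, at 4.18, 15.9, 1.67 and 9.36. Members were below the first (log2 difference -2.51, SE 0.25, edgeR adjusted p = 3.09e-09) and above the second (1.74, SE 0.31, edgeR adjusted p = 4.93e-04). Neither difference was called without the library block, nor the second without control 2. After thinning, Foxp2 was counted in 10.7% of members and 6.03% of astrocytes. The counted part of Foxp2 need not be the floxed part, so its level is no full check of the deletion.

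Drd, the dopamine receptor gene of the table, taken for Drd1, and its neighbour Sfxn1, a mitochondrial serine transporter, were both lower in both cKO libraries. Drd encodes the receptor whose promoter marks these cells and which raises cyclic AMP. In RefSeq (GRCm38.p6) Drd1 lies on chromosome 13 at 54051183 to 54055658 and Sfxn1 at 54071656 to 54108346, with no coding gene between them. Start regions from the RefSeq table, from 250 bases before to 50 after a start, are shown because these 2 neighbours were both lower in cKO. For Drd1 the start is the gene's own outer end, at 54055658. For Sfxn1 the table's start is at 54071845, inside the gene's span and not at its outer end. Capitals mark GGGCGG (a GC box) and CAGCTG (an E-box).
Drd1, chr13:54055609-54055908, minus strand: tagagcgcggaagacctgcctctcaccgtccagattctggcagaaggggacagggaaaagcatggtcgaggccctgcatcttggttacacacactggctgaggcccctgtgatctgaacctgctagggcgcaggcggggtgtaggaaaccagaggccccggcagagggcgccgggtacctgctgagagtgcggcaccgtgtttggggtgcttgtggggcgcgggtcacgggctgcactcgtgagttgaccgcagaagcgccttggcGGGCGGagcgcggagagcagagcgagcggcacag
Sfxn1, chr13:54071595-54071894, plus strand: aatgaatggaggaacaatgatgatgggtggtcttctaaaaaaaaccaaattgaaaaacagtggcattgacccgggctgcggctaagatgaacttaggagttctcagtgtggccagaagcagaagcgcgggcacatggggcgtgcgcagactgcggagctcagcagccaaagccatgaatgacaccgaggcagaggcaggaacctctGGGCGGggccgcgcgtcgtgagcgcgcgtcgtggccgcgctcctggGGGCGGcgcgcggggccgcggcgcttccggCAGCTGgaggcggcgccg
GGGCGG occurs 1 time in the printed Drd1 window, at position 17 from the start, and 2 times in the Sfxn1 window, and CAGCTG occurs 1 time, in Sfxn1. The table holds another Drd1 start region, at 54054731 to 54055030, which is not printed and has GGGCGG 1 time, at position -133. Both strands were searched, the motifs do not overlap, and TATAAA is in none of these windows. Of 32851 start regions of the same length 35.7% hold GGGCGG, 16.3% CAGCTG and 13.6% TATAAA.

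Drd stood at 125 and 116 CPM in controls and 45.1 and 40.0 in cKO, counted in 37, 55, 19 and 17 cells. The 2 groups were apart and each was even within itself. The log2 change was -1.46 (SE 0.20, edgeR adjusted p = 0.792), and the adjusted p lay between 4.83e-05 and 1.00 over the alternatives. Without control 2 it was -1.50 (edgeR adjusted p = 0.0151), with control 1 as the lone control and the spread taken from the cKO libraries. Corticothalamic cells stood at 250.01, 201, 138 and 78.5 CPM and upper layer cells at 31.6, 46.5, 22.3 and 19.7, so that cKO libraries were below controls in all 3 classes. Members had less Drd than corticothalamic cells (log2 difference -1.07, SE 0.14, edgeR adjusted p = 5.69e-07) and more than upper layer cells (1.41, SE 0.17, edgeR adjusted p = 4.71e-06). Neither difference was called without the library block. After thinning, Drd was counted in 25.1% of members and 5.57% of astrocytes.

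Sfxn1 stood at 1129.7 and 1345 CPM in controls and 470.2 and 480.3 in cKO. It was counted in nearly all members, 46, 82, 51 and 66 cells. The log2 change was -1.34 (SE 0.24, edgeR adjusted p = 0.998), and DESeq2 called it at the same size (DESeq2 adjusted p = 0.00579, against a range of 7.68e-05 to 1.00 over the alternatives). Corticothalamic cells stood at 1427, 1454, 768 and 530.4 CPM and upper layer cells at 1142, 1184, 479 and 476, with both cKO libraries below both controls in each class. The dopamine and D1 signalling list, which holds Drd and Sfxn1, summed to 3881, 3657, 2517 and 2635 CPM in astrocytes. Over all D1Tom cells that list summed to 4024, 4144, 3209 and 3073 CPM, so lower cKO sums were not particular to members. Emx1, the gene whose expression pattern the Cre follows, stood at 20.9 and 28.2 CPM in controls and 14.6 and 9.70 in cKO (log2 change -0.96, SE 0.40, edgeR adjusted p = 0.998). The change from control to cKO did not differ detectably between members and either class for these 4 genes. The difference of the log2 changes from corticothalamic cells was -0.43 for Foxp2 (SE 0.57), -0.47 for Drd (SE 0.29), -0.23 for Sfxn1 (SE 0.16) and 0.02 for Emx1 (SE 0.59), each with an edgeR adjusted p of 0.999. From upper layer cells it was -1.57 (SE 0.67), -0.64 (SE 0.34), -0.11 (SE 0.14) and -0.14 (SE 0.41), each with an edgeR adjusted p of 1.

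**Figure D5:**
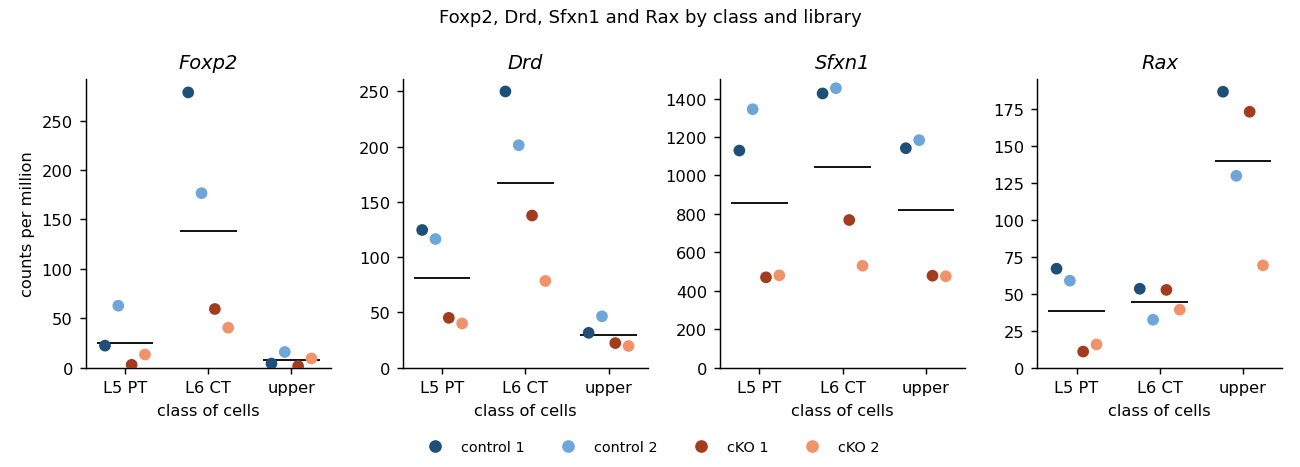
Foxp2, Drd, Sfxn1 and Rax in CPM (vertical axes) by class (L5 PT, layer 5 pyramidal tract; L6 CT, layer 6 corticothalamic; upper, upper layer) and library. Each library has its own colour, with 2 libraries per genotype. Both cKO libraries lie below both controls for Drd and Sfxn1 in all 3 classes, for Foxp2 in L5 PT and L6 CT, and for Rax in L5 PT.

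Over all genes, no change from control to cKO passed the test in members. Of 10126 genes tested with edgeR 0 were called (0.0%), 230 had an unadjusted p under 0.05, and DESeq2 called 1, Sfxn1. The groups did not overlap for 2860 genes (28.2%), both cKO libraries lying above both controls for 1263 (12.5%) and below for 1597 (15.8%). With the preparation day as a replicate block 85 were called (0.839%), 65 higher (0.642%) and 20 lower (0.198%) in cKO. Block and genotype fitted to 4 libraries leave little spread to measure for each gene, so these calls lean on the spread shared over genes. In that blocked fit Foxp2 fell by 2.40 on the log2 scale (edgeR adjusted p = 5.99e-04), Drd by 1.47 (6.37e-05), Sfxn1 by 1.34 (7.68e-05) and Rax by 2.26 (4.46e-05), and Emx1 was not called (0.525). Without control 2 the unblocked fit called 57 genes, and without control 1 it called 9. In simulated counts of this size the unblocked test recovered 30 of 100 genes changed 2-fold and 94 of 100 changed 4-fold. The changed genes all had a mean above 20 CPM, and the draws held no preparation-day effect. These shares need not hold for the real libraries. There the same test did not call Foxp2 (log2 change -2.53) or Rax (-2.24).

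The genes of lowest p in each direction were described by library. Lower in both cKO libraries, besides Drd, Sfxn1 and Rax, was Fos, an immediate early gene, at 81.4 and 43.5 CPM in controls and 16.0 and 17.0 in cKO. Single cells gave 36.3% and 47.1% of its control counts. Mest, an imprinted gene, stood at 31.0 and 33.3 CPM against 10.9 and 12.1, Adamts18, a matrix protease, at 86.5 and 82.6 against 51.0 and 36.4, and Bok, a member of the Bcl-2 family, at 156 and 131 against 71.3 and 83.7. Higher in both cKO libraries were Cxcl14, a chemokine, at 22.3 and 41.0 CPM in controls and 69.1 and 88.5 in cKO, and Fosl2, a relative of Fos, at 20.9 and 24.3 against 61.1 and 36.4. Parm1, a gene of the layer 5 list, stood at 18.7 and 16.0 CPM against 44.4 and 30.3. None of these genes was called in the unblocked edgeR fit (adjusted p = 0.998 for each). With the preparation day as a replicate block, edgeR called Fos (adjusted p = 2.78e-04), Cxcl14 (7.60e-04), Bok (0.0107), Adamts18 (0.0288) and Fosl2 (0.0436) in these directions, and did not call Mest (0.0591) or Parm1 (0.108).

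Mitochondrial genes were among the genes of lowest p, in both directions. As a list they mostly leaned higher in cKO: of 12 tested 10 had a positive log2 change, with a median of 0.44. Both cKO libraries lay above both controls for 7 of them and below for 1, mt-Co2, beside 12.5% and 15.8% of all genes. The subunit gene mt-Co1 stood at 641 and 839 CPM in controls and 1632 and 1246 in cKO, and mt-Atp6 at 877 and 389 against 1581 and 1536. By contrast mt-Co2 stood at 67.7 and 219.5 CPM against 5.82 and 33.96. None of the 3 was called in the unblocked edgeR fit (adjusted p = 0.998 for each). With the replicate block all 3 were called by edgeR, mt-Co1 (adjusted p = 0.00612) and mt-Atp6 (3.23e-04) higher and mt-Co2 (2.90e-09) lower in cKO. Without a block, mt-Co2 was also called with no filter on low counts, without control 1, and without the cells holding 2 or more defining genes of another type. The same levels recurred in the other classes, with mt-Co2 at 65.2, 222, 5.40 and 20.3 CPM in corticothalamic cells and 81.4, 220.3, 4.46 and 33.7 in upper layer cells.

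The pyramidal tract list held no gene called between the genotypes. Of its 21 genes tested 0 were called with edgeR, 2 had an unadjusted p under 0.05, and the median log2 change was 0.04 beside 0.01 over all genes. With the replicate block 0 of the pyramidal tract, corticothalamic, callosal, receptor, ion channel and release genes were called. Among the neuronal lists the blocked calls were Robo2, an axon guidance receptor, with Foxp2, Drd and Sfxn1, all lower in cKO, and Sst of the interneuron list, higher. That fit called 5 of 9 astrocyte genes, 3 of 7 oligodendrocyte precursor genes and all 3 oligodendrocyte genes tested, each higher in cKO. The summed astrocyte genes stood at 537 and 2074 CPM in controls and 1170 and 2903 in cKO, the precursor genes at 246 and 513 against 418 and 788, and the oligodendrocyte genes at 64.8 and 94.1 against 527 and 135. The part of these glial counts in the blocked calls was not tested. When the members with at least 2 defining genes of another type were left out, 98 cells remained and the unblocked fit called 5 genes, among them Drd at -2.20, Sfxn1 at -1.56 and Rax at -3.95 on the log2 scale.

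Rax was the 1 gene whose change with genotype differed between members and corticothalamic cells. In members it stood at 67.0 and 58.9 CPM in controls and 10.9 and 15.8 in cKO, counted in 19, 30, 6 and 8 cells. In corticothalamic cells it stood at 53.4 and 32.5 CPM against 52.7 and 39.2, and in upper layer cells at 187 and 129.9 against 173 and 69.3. Within members the log2 change was -2.24 (SE 0.32, edgeR adjusted p = 0.792), with adjusted p between 3.92e-07 and 0.999 over the alternatives. The interaction of genotype and class, added after the data were seen, was -2.42 on the log2 scale (SE 0.44, edgeR adjusted p = 0.00945), the only call among 10716 genes (0.00933%), of which 428 had an unadjusted p under 0.05. It was not called by DESeq2 (-2.44, adjusted p = 1.00) or without cKO 1 (-1.91, edgeR adjusted p = 0.808), and over the alternatives the adjusted p ran from 3.54e-04 to 1.00. Against upper layer cells 0 of 10686 genes were called (0.0%), 428 had an unadjusted p under 0.05, and DESeq2 also called 0; for Rax the interaction was -2.01 (SE 0.37, edgeR adjusted p = 0.124), with -0.85 without cKO 1 and -2.67 without cKO 2. Without cKO 2 that value was called (edgeR adjusted p = 3.03e-08), as it was without control 1 (-2.17, edgeR adjusted p = 7.34e-05). Rax had its higher level in the members without Tcerg1l, which were 20 of 46, 34 of 83, 24 of 60 and 39 of 71 members. Among members with Tcerg1l its log2 change was -2.49, again not called by edgeR (adjusted p = 0.999).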

How the data were processed

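For the D1Tom sort the authors deposited unnormalized whole-number counts of 17836 genes in 11494 cells. Per the file headers, they also deposited the fraction of mitochondrial counts in each cell, computed by the authors. Per the labels' protocols, 10x Genomics Chromium libraries were read on a NextSeq 500. The submitters' processing notes name bcl2fastq 2.17.1.14, Cell Ranger 2.1.1, UMI-tools 0.5.4, STAR 2.5.2b, featureCounts of Subread 1.6.2, SAMtools 1.6 and FastQC 0.11.5. They name the mouse build GRCm38.p6. How strand and overlapping genes were counted is not given in the sources used here. The table has Drd and not Drd1, and Drd was taken for Drd1. Of the symbols 92.2% matched the GENCODE M21 annotation.

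Cells were chosen by their raw counts in Python 3.11.15, and all deposited cells were eligible. The rule, the gene lists and the classes were chosen with earlier results of these data known. Counts were summed per library and class and tested with edgeR 4.0.16 in R 4.3.3: TMM factors, the default filter on low counts, the quasi-likelihood test and Benjamini-Hochberg adjustment at 0.05. Genotypes were compared over 2 control and 2 cKO libraries. Classes were compared with the library as a block. Alternatives were DESeq2 1.42.0, other size factors, no filter, no or added blocks, each library left out, other member rules, cells thinned to 5000 counts, and cells left out for depth or for genes of other types. Standard errors are edgeR's or DESeq2's log2 change over its test statistic. CPM scales the class sum of each library to 1000000. Intervals are exact binomial at 95%.

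Per the labels, libraries of the same replicate number share a preparation day. The main genotype test has no block, and this pairing enters as the replicate block of an alternative fit. The deviations of same-numbered libraries from their group means correlated at 0.39 over 10126 genes. In simulated counts of the same size, drawn without a preparation-day effect, 200 of the genes above 20 CPM were changed and 9 unchanged genes were called.

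Named were the 11 rule genes, Foxp2, Drd, Sfxn1 and Emx1. For the genotypes, the 10 genes of lowest p in each direction with at least 20 CPM and groups apart were named. For each class comparison, the 10 largest differences each way among called genes of at least 20 CPM were named, and from each list the 2 genes of highest level and the 2 of largest difference. The text describes part of these, and 1 gene of the upper layer rule and 1 gene named for the genotypes are not reported here.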

Additional observations from a re-analysis of the deposited data

Results flagged for a closer look

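For Rax, the change from control to cKO differed between layer 5 pyramidal tract cells and layer 6 corticothalamic cells by -2.42 on the log2 scale (edgeR interaction term, adjusted p = 0.00945). Rax was lower in 2 of 2 cKO libraries among the first cells, whereas the genotypes overlapped among the second. DESeq2 gave a like difference that did not pass (-2.44, adjusted p = 1.00), and without cKO 1 the edgeR difference was -1.91 (adjusted p = 0.808, in a range of 3.54e-04 to 1.00 over the alternatives). The counts behind it were few, from 6 and 8 cells in the cKO libraries, where a single cell gave 33.3% and 46.2% of them. Rax also had a lower level in members with Tcerg1l than in those without, and the part of this makeup in the difference was not tested.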

How the results depend on the processing

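The genotype fits rest on 260 cells in 2 libraries a genotype, and control 1 and cKO 2 differed in depth as well as in genotype. For cKO against control, edgeR called 0 genes. DESeq2 called 1, no filter on low counts 34, the replicate block 85, the set without cells holding 2 or more defining genes of another type 5, and the fits without 1 library 0 to 57. RLE size factors and the other member rules called 0. The rule that also required 0 counts of Rprm and Sulf1 left 55 cells, 3 of them in control 1. Its fit tested 3255 genes, so its lack of calls says little.

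On the log2 scale Foxp2 was -2.53 without a filter, -2.40 with the replicate block and -3.91 to -1.52 without 1 library. Drd was -1.47 without a filter and with the block, -2.20 without the cells holding genes of another type, and -1.50 to -1.43 without 1 library. Sfxn1 was -1.34 with DESeq2 and with the block, -1.35 without a filter and -1.56 without those cells. Each of these passed the threshold but for some fits without 1 library. Other alternatives did not pass. Foxp2 was -4.96 without those cells (edgeR adjusted p = 0.104), and DESeq2 called neither Foxp2 nor Drd. None of these genes passed with RLE size factors, with at least 2 of the 4 either-or genes, or without the deepest 5% of cells. Drd and Sfxn1 did not pass with thinned cells. Of the other genes named for genotype, Bok turned from -0.86 to 0.0103 among members also at 0 for Rprm and Sulf1, a set with 3 cells in control 1. Of the remaining values of named genes 213 kept their side of the threshold and 33 moved past it.

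The share difference turned to 0.154 points with the rule also requiring 0 counts of Rprm and Sulf1, and ran from -1.25 to 0.784 without 1 library. That stricter rule held only 3 cells in control 1. Against corticothalamic cells 900 genes were called, 412 with DESeq2, 277 without the library block, 387 with thinned cells and 487 to 780 without 1 library. Against upper layer cells 1539 were called, 739 with DESeq2, 337 without the block, 413 with thinned cells and 884 to 1302 without 1 library. Thinned fits tested fewer genes, 4843 and 4462, and applied the class rules anew to the thinned counts. Etv1 turned to 0.38 against corticothalamic cells with thinned cells. Of the other values of named genes in the class comparisons, 329 and 330 kept direction and side, and 14 and 10 no longer passed.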
